A study of Mus musculus with 6 samples.

Results

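The 32 genes described here form the interferon response and antigen presentation group of the mouse retina. They were chosen by symbol, as 4 signalling and transcription factors, 14 interferon-induced effectors, 2 cytosolic RNA sensors, 8 genes of the MHC class I pathway and 4 genes of MHC class II. Of these, 31 were among the 35485 gene symbols of the deposited files. Ifi27 was not matched by symbol. A total of 29 passed the expression filter, a mean above 0.3 RPKM in at least one group, as part of the 13670 genes that passed. RPKM is the exon reads of a gene divided by its exon length and by the reads mapped to genes in the sample. Rsad2 and Oas1a did not pass.

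RNA-seq was performed on whole retinas of male wild type C57BL/6 mice, 12 weeks of age, taken 2 days after surgery. ONC mice received an optic nerve crush, a 10 s forceps injury at a distance of 2 mm from the eyeball that damages the axons of retinal ganglion cells (RGCs). Sham mice had the surgical approach alone. Each group had 3 samples, and each sample was a pool of RNA from 6 retinas of 6 mice, so the spread between samples is a spread between pools. Counted exon reads ranged from 17343945 to 18349331 per sham sample and from 20019818 to 20358008 per ONC sample. Every ONC sample was therefore deeper than every sham sample. The raw reads given below are not corrected for this, while the fold changes are.

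Interferons are secreted proteins that bind receptors on the cell surface and act through JAK kinases, STAT proteins and IRF factors to switch on a large set of antiviral genes. The same factors can also raise the genes that load peptides onto MHC class I, which nearly all nucleated cells carry at some level, and those of MHC class II, which is mostly found on professional antigen-presenting cells. In healthy neural retina, MHC expression is known to be low.

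Among the 29 members tested, H2-K1 and H2-D1 rose after ONC. These are the classical class I heavy chains, the part of the class I molecule that holds the peptide. H2-K1 was 1.44-fold higher and H2-D1 was 1.21-fold higher in ONC. Throughout, "rose" and "fell" mean a false discovery rate (FDR) below 0.1 in edgeR's quasi-likelihood test with Benjamini-Hochberg adjustment over all 13670 genes, and a DEG also needs a fold change above 1.5. No member fell and 0 members were DEGs by edgeR, while 5 members had an unadjusted p under 0.05, all of them higher in ONC. DESeq2 on the same counts put 3 members past the FDR and made 1 of them, Ifi30, a DEG. Over all genes tested, 6.09% passed the FDR in either direction, 2.38% passed it as higher in ONC, 3.72% as lower, 1.66% were DEGs and 7.73% had an unadjusted p under 0.05 and were higher in ONC.

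The fitted log2 fold change was above 0 for 24 of the 29 members and for 52.3% of all genes. Its median was 0.23 over the members and 0.01 over all genes. By class, the median was 0.18 over the 17 interferon-induced members tested (signalling factors, effectors and sensors together), 0.25 over the 8 class I members and 0.54 over the 4 class II members. The class II median comes from genes with 2 to 34 exon reads per sample. The rise past the threshold was found in 2 of 8 class I members, in 0 of 17 interferon-induced members and in 0 of 4 class II members by edgeR. At an unadjusted p under 0.05 those counts were 2, 2 and 1. A difference between the classes was not tested.

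**Figure D1:**
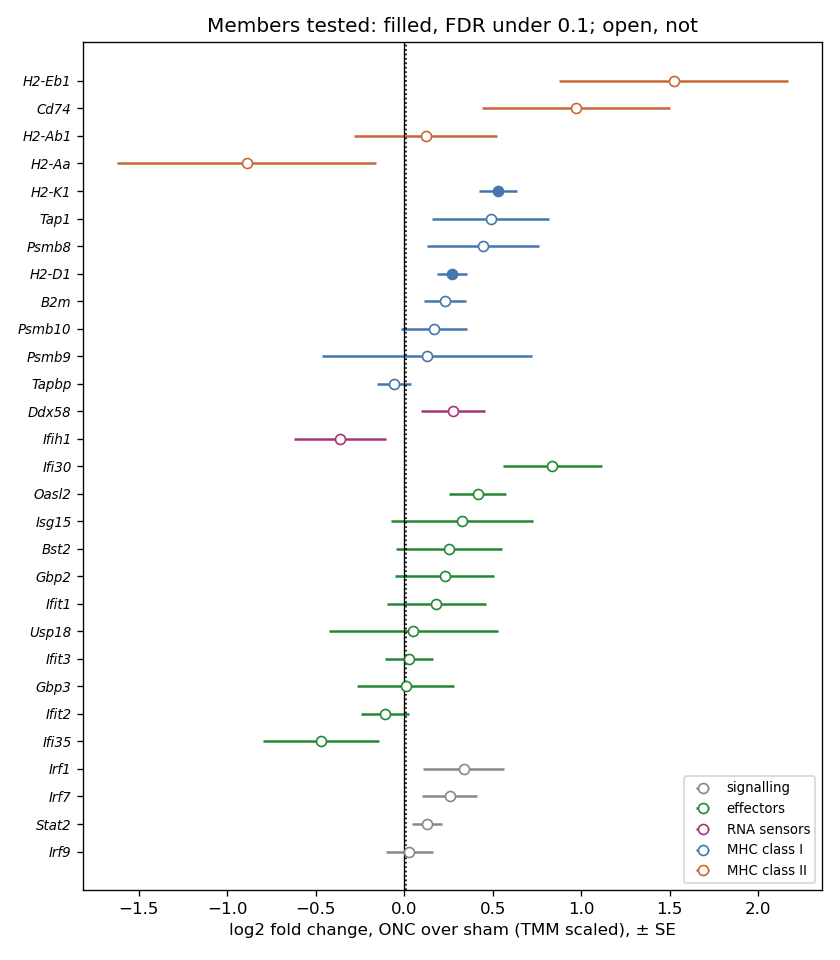
Log2 fold change of ONC over sham for the 29 members tested (points) with the standard error (bars), coloured by class. Filled points passed an FDR of 0.1, open points did not, and the dotted line is the median of all genes tested. H2-K1 and H2-D1 are the filled points, and the widest bars belong to H2-Aa and H2-Eb1 of MHC class II.

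The promoters of both genes that rose are shown first, because they are the sequences of the class I heavy chains whose reads differed. RefSeq promoter windows (GRCm38.p6) were given for 28 of the 32 members, and the 250 bases before each start were searched on both strands. The printed windows are 5′ to 3′ on the strand of the gene. H2-K1 is read from chr17:34000383-34000462 on the minus strand, and H2-D1 from chr17:35262919-35262998 on the plus strand. Capitals mark GGATTCCCC, an NF-kB type site, and GAANNGAAA, a short interferon-response type element that stands here as its reverse complement.
H2-K1: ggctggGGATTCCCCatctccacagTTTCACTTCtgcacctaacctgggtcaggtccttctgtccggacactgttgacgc
H2-D1: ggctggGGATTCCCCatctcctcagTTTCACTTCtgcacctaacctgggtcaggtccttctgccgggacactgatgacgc
Of these 80 bases, 76 were identical between the genes. GGATTCCCC was chosen after these promoters had been read, and it occurs in 0.24% of all 32851 promoter windows, with H2-K1, H2-D1 and Irf1 among the members. GAANNGAAA occurs in 6.31% of windows and in 5 members, H2-K1, H2-D1, Ddx58, Isg15 and Stat2, of which the last 3 did not pass the test. A match describes the letters of the window and does not show that a factor binds there.

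The longer interferon-stimulated response element (GAAA, then any 2 bases, then GAAA), which can overlap the shorter one, occurs in 2.98% of windows and in 10 of the 28 members with a window. Capitals mark it in B2m (chr2:122147527-122147606, plus strand), Ifit1 (chr19:34640764-34640843, plus strand) and Isg15 (chr4:156200849-156200908, minus strand), shown because they are classic interferon-induced genes whose reads did not pass the test.
B2m: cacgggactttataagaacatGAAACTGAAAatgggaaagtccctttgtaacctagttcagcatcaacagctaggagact
Ifit1: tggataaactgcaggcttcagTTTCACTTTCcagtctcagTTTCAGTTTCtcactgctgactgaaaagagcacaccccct
Isg15: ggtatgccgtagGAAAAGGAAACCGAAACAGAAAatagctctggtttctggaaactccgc
Of the 10 members holding this element, 8 were tested and 0 rose by edgeR, where 2.38% of all genes rose. This count does not set them apart from other genes. A GAS type element, TTCNNNGAA, was searched as well. It occurs in 7.02% of windows and in 5 members, Bst2, Ifit2, Irf1, Oas1a and Psmb8, of which 4 were tested and 0 rose by edgeR.

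H2-K1 (chr17:33996012-34000333) had 351, 403 and 378 exon reads in the sham samples and 562, 682 and 654 in the ONC samples. Its RPKM was 9.28, 10.2 and 9.38 in sham and 13.5, 16.6 and 15.3 in ONC. Every ONC sample was above every sham sample, and the gap between the groups was wider than the spread within either. The mean RPKM went from 9.63 ± 0.52 to 15.2 ± 1.6 (SD, n = 3 each). The log2 fold change was 0.53 ± 0.11 (SE) with an edgeR FDR of 0.00608, just short of the fold change of a DEG. H2-K1 passed the FDR in all 18 alternative settings, at log2 fold changes from 0.47 to 0.65.

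H2-D1 (chr17:35263094-35267497) had 956, 845 and 907 exon reads in sham and 1293, 1272 and 1227 in ONC. Its RPKM was 23.95, 20.32 and 21.35 in sham and 29.43, 29.44 and 27.25 in ONC. The groups did not overlap. The log2 fold change was 0.27 ± 0.08 (SE) with an edgeR FDR of 0.0778. That call was borderline. The FDR became 0.328 without sham replicate 2, 0.162 without sham replicate 3, 0.198 without ONC replicate 2 and 0.135 without ONC replicate 3. The log2 fold change was then 0.20, 0.30, 0.27 and 0.30, in that order. Over all genes, 373, 397, 435 and 454 passed the FDR in those settings, against 833 as reported.

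B2m (chr2:122147687-122153082) encodes beta-2-microglobulin, the light chain that pairs with every class I heavy chain. It had 486, 537 and 577 exon reads in sham and 590, 868 and 727 in ONC. ONC replicate 1 lay within the reach of the sham samples on the RPKM scale, at 27.2 against a highest sham value of 27.5. The log2 fold change was 0.23 ± 0.12 (SE), with an edgeR FDR of 0.347, and the FDR was 0.0404 without ONC replicate 1. B2m reads are uncertain, because 53.1% of them mapped uniquely. The ratio of the summed RPKM of H2-K1 and H2-D1 to that of B2m ranged from 1.12 to 1.35 in sham and from 1.13 to 1.58 in ONC, so the groups overlapped.

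**Figure D2:**
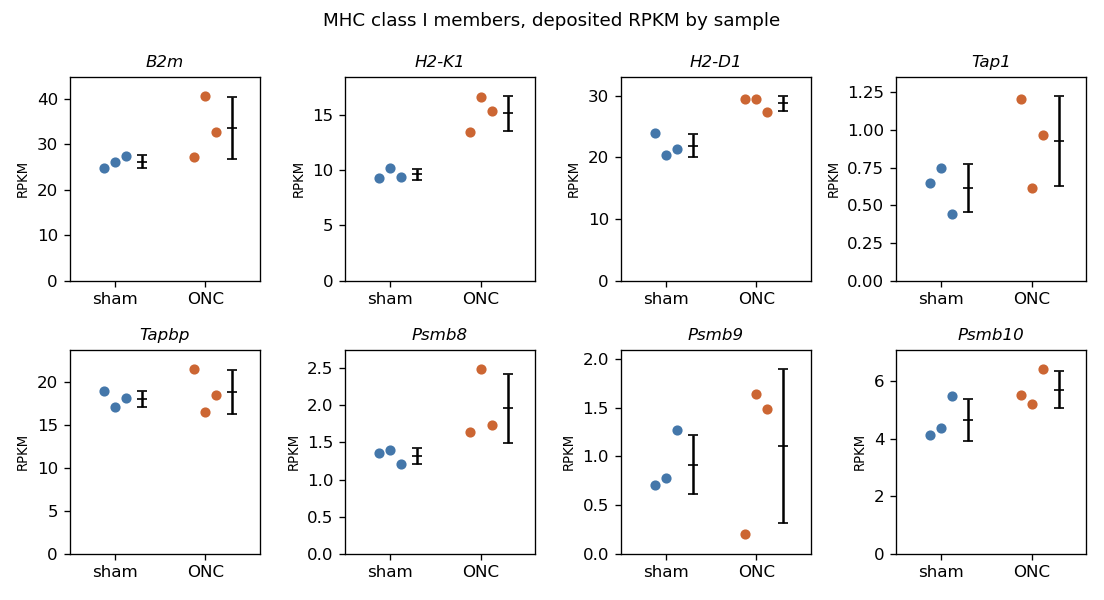
Deposited RPKM of the 8 MHC class I members in each sample (points, blue sham and orange ONC), with the mean and SD of 3 samples per group (black). All ONC points lie above all sham points for H2-K1, H2-D1 and Psmb8, and the groups overlap for the other 5.

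The class I loading genes did not pass the test. Tap1, a subunit of the transporter that brings peptides into the endoplasmic reticulum, had 44, 53 and 32 exon reads in sham and 90, 45 and 74 in ONC (log2 fold change 0.49 ± 0.33, edgeR FDR 0.488). Tapbp, which encodes tapasin, the bridge between transporter and class I molecule, was far more abundant, at a mean of 18.0 RPKM in sham and 18.8 in ONC. Its log2 fold change was -0.06 ± 0.10 (SE), and the sign turned to 0.06 under the scaling of RPKM.

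The immunoproteasome subunits Psmb8, Psmb9 and Psmb10 replace Psmb5, Psmb6 and Psmb7 in the proteasome of cells exposed to interferon. Psmb8 had 38, 41 and 36 exon reads in sham and 51, 76 and 55 in ONC, with no overlap between the groups (log2 fold change 0.45 ± 0.32, edgeR FDR 0.513). Psmb9 had 13, 15 and 25 in sham and 4, 33 and 31 in ONC, so ONC replicate 1 was the lowest of all 6 samples and the other ONC samples the highest. Psmb10 had 120, 133 and 170 in sham and 177, 164 and 212 in ONC, and the groups overlapped. Per length, Psmb8 stood at 1.78% to 1.93% of the RPKM of Psmb5 in sham and at 2.25% to 3.01% in ONC. The 3 immunoproteasome subunits together made up 2.54% to 3.55% of the summed RPKM of all 6 subunits in sham and 3.17% to 3.89% in ONC, ranges that overlap.

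Among the signalling members, Irf1, an early interferon-induced transcription factor, had 72, 85 and 73 exon reads in sham and 100, 135 and 102 in ONC. The groups did not overlap, but the log2 fold change of 0.34 ± 0.23 had an edgeR FDR of 0.49. Irf7, the factor that amplifies type I interferon production, had 222, 179 and 152 reads in sham and 261, 244 and 261 in ONC (log2 fold change 0.26 ± 0.16, edgeR FDR 0.436). Stat2 and Irf9, which are part of the complex that binds the interferon-stimulated response element, had log2 fold changes of 0.13 ± 0.09 and 0.03 ± 0.13.

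Of 11 effectors tested, 9 had a log2 fold change above 0 and 2 below, where 52.3% of all genes were above 0. The values ran from -0.47 for Ifi35 to 0.84 for Ifi30. Ifi30 encodes a lysosomal thiol reductase that unfolds antigens for class II loading. It had 49, 58 and 32 exon reads in sham and 105, 93 and 89 in ONC. All ONC samples were above all sham samples, and the log2 fold change of 0.84 ± 0.28 had an edgeR FDR of 0.111. Ifi30 passed the FDR in 5 of 18 alternative settings, DESeq2 among them.

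Oasl2, a 2′-5′ oligoadenylate synthetase-like antiviral protein, had 192, 241 and 210 exon reads in sham and 402, 324 and 265 in ONC (log2 fold change 0.41 ± 0.16, edgeR FDR 0.186). Its ONC samples were spread widely, and after TMM scaling the lowest of them lay below the highest sham sample. Isg15, a ubiquitin-like protein attached to targets in infected cells, had 23, 25 and 25 reads in sham and 41, 35 and 30 in ONC (log2 fold change 0.32 ± 0.40, edgeR FDR 0.737).

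The Ifit genes encode proteins that bind foreign RNA. Ifit1 had 44, 63 and 52 exon reads in sham and 72, 65 and 72 in ONC. Ifit2 had 290, 255 and 317 in sham and 299, 331 and 299 in ONC. Ifit3 had 260, 224 and 223 in sham and 277, 273 and 287 in ONC, of which 84.1% of reads over all samples were unique. Their log2 fold changes were 0.18, -0.11 and 0.03, and that of Ifit2 turned to 0.02 under the scaling of RPKM. Bst2 (tetherin, which holds budding virus at the membrane), the guanylate-binding proteins Gbp2 and Gbp3, and Usp18, which removes ISG15, had log2 fold changes of 0.25, 0.23, 0.01 and 0.05. Usp18 was uneven between pools, at 29, 50 and 9 reads in sham and 26, 41 and 38 in ONC.

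Ifi35 had 123, 49 and 87 exon reads in sham and 49, 102 and 67 in ONC, with overlapping groups. Rsad2 (viperin) had 23, 12 and 21 in sham and 28, 36 and 17 in ONC. Oas1a had 17, 0 and 6 in sham and 6, 8 and 7 in ONC. Both were too low for the filter. Of the sensors of viral RNA, Ddx58 (RIG-I) had 124, 115 and 101 reads in sham and 162, 159 and 156 in ONC, without overlap, and Ifih1 (MDA5) had 111, 111 and 78 in sham and 56, 109 and 106 in ONC. Their log2 fold changes, 0.27 ± 0.18 and -0.36 ± 0.26, did not pass the test.

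**Figure D3:**
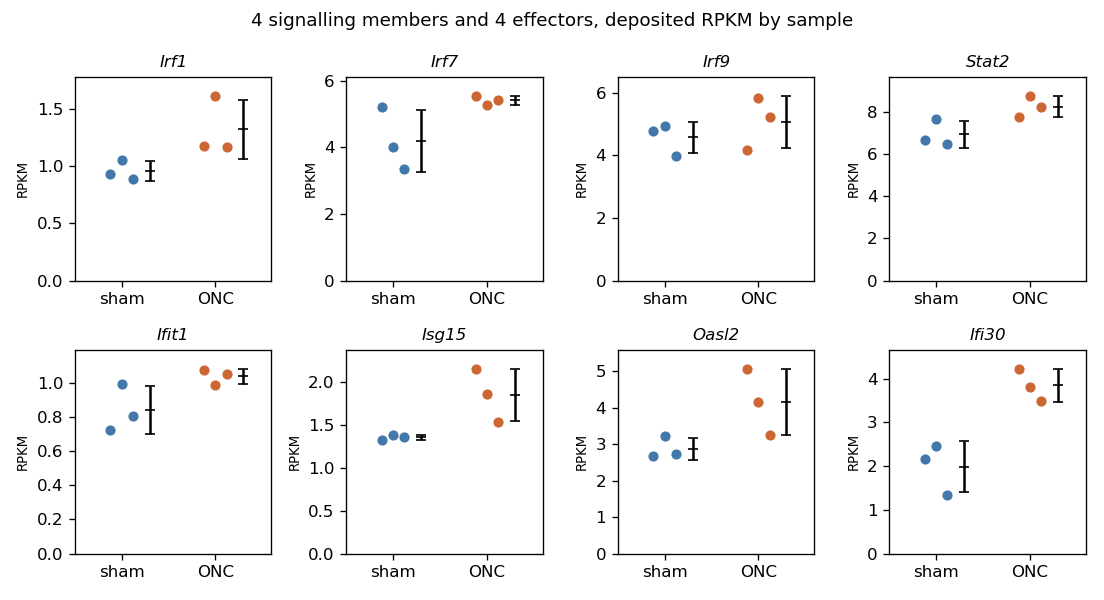
Deposited RPKM of the 4 signalling members and 4 effectors in each sample (points, blue sham and orange ONC), with the mean and SD of 3 samples per group (black). ONC lies above sham without overlap for Irf1, Irf7, Stat2, Isg15, Oasl2 and Ifi30 on this scale, and none of the 8 genes passed an FDR of 0.1 on the TMM scale by edgeR.

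The RPKM scale moves all genes. Its divisor counts intron reads too, and exons took 70.9% to 76.6% of those reads in sham and 78.5% to 80.4% in ONC. With the same totals as scaling, the median log2 fold change of all genes was 0.13, against 0.01 with TMM. On deposited RPKM, 11 members had every ONC sample above every sham sample, where 25.4% of all genes did. After TMM scaling 7 members did, where 11% of all genes did: Irf1, Ifi30, Ddx58, H2-K1, H2-D1, Psmb8 and H2-Eb1. No member had every ONC sample below every sham sample on either scale, where 10.8% of all genes did after TMM scaling and 3.45% on deposited RPKM. With the scaling of RPKM, 5 members passed the FDR (B2m, H2-D1, H2-K1, Ifi30 and Oasl2), and the DEGs over all genes went from 113 higher and 114 lower to 263 higher and 87 lower.

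The class II genes were close to the limit of detection. Cd74, the invariant chain that guards the class II groove, had 20, 5 and 13 exon reads in sham and 34, 21 and 32 in ONC. H2-Aa had 16, 5 and 11 in sham and 2, 9 and 9 in ONC, and H2-Ab1, its partner chain, had 30, 20 and 29 in sham and 34, 34 and 32 in ONC. Their log2 fold changes were 0.97 ± 0.53, -0.89 ± 0.73 and 0.12 ± 0.41, none past the FDR. H2-Eb1, another class II beta chain, had 9, 4 and 3 reads in sham and 19, 21 and 14 in ONC. Its groups did not overlap, and the log2 fold change of 1.52 ± 0.65 had an edgeR FDR of 0.234. The summed RPKM of the 4 genes was 1.14 to 2.60 in sham and 2.55 to 2.60 in ONC.

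**Figure D4:**
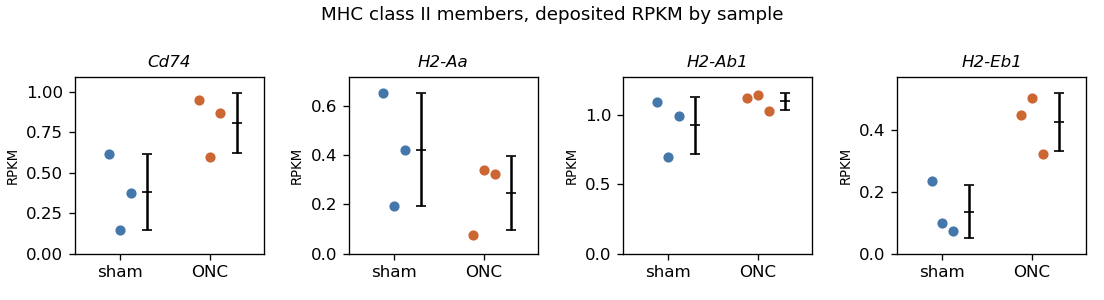
Deposited RPKM of the 4 MHC class II members in each sample (points, blue sham and orange ONC), with the mean and SD of 3 samples per group (black). All values lie below 1.2 RPKM, and only H2-Eb1 has its groups apart.

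By mean RPKM over all samples the members ran from B2m at 29.8, H2-D1 at 25.3, Tapbp at 18.4 and H2-K1 at 12.4 down to Oas1a at 0.16. Those 4 class I genes were the members above 10 RPKM, and 9 members were below 1. H2-D1 was above Tapbp, and H2-K1 above Stat2, in 6 of 6 samples. B2m was above H2-D1, and Tapbp above H2-K1, in 5 of 6 samples, so neither of these neighbours is separated in every sample.

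The other genes of the pathway were taken from lists of 174 genes, of which 84 were tested. One of them rose (Ctss) and another fell (Canx), and 17 had an unadjusted p under 0.05, of which 15 were higher in ONC. Over all genes 16.7% had an unadjusted p under 0.05 in either direction. The median log2 fold change of the 84 pathway genes was 0.09, against 0.01 over all genes. Ctss encodes cathepsin S, which trims the invariant chain from class II, and had 219, 236 and 272 exon reads in sham and 338, 471 and 383 in ONC (log2 fold change 0.49 ± 0.14, edgeR FDR 0.0628). Canx, the chaperone calnexin that holds newly made class I heavy chains and many other glycoproteins, had a log2 fold change of -0.21 ± 0.06 (edgeR FDR 0.0778).

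Of 19 interferon ligand genes in the files, 14 had 0 exon reads in all 6 samples, Ifnb1 among them. A count of 0 allows up to 3 reads, which is 0.141 to 0.229 RPKM for these genes, counting error only. The other 5 had 15 reads together, and no ligand was tested. Among 16 receptor and signalling genes tested 0 passed the FDR by edgeR, and 2 had an unadjusted p under 0.05, both higher in ONC, among them Ifngr2, a chain of the interferon gamma receptor (log2 fold change 0.25 ± 0.12, FDR 0.296). Ptpn2, a phosphatase that dampens JAK and STAT signalling, came next at -0.11 ± 0.07. Among 11 sensors and adaptors 0 passed, with 1 at an unadjusted p under 0.05. This was Aim2, a sensor of cytosolic DNA, with 17, 9 and 3 reads in sham and 45, 25 and 23 in ONC. Ticam1 and Trim25 followed it, at log2 fold changes of 0.40 ± 0.28 and 0.12 ± 0.09.

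Among 32 other interferon-induced genes tested 0 passed the FDR by edgeR, 7 had an unadjusted p under 0.05 (6 higher and 1 lower in ONC, beside 16.7% of all genes in either direction), and the median log2 fold change was 0.25. The smallest p-values belonged to Ifi27l1 (0.56 ± 0.19, FDR 0.112), Xaf1 (1.11 ± 0.38, FDR 0.126) and Gbp6 (0.34 ± 0.15, FDR 0.256, 67.9% of reads unique). Ifi27l1 covers chr12:103434189-103440245, the position RefSeq gives to Ifi27, and had 100, 105 and 105 exon reads in sham and 145, 181 and 206 in ONC without overlap. It was kept out of the member counts because its symbol differs.

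Among 19 other class I genes tested, the nonclassical heavy chains H2-Q4 (0.60 ± 0.23, FDR 0.175) and H2-T23 (0.70 ± 0.28, FDR 0.197) followed Canx in order of p-value. H2-T23 shares reads with near-identical copies, since 63.1% of its reads were unique. Among 6 other class II genes tested, H2-DMb1, part of the peptide editor of class II, had 1, 0 and 3 reads in sham and 9, 15 and 13 in ONC (2.88 ± 0.95, FDR 0.105), and Rfxank, a subunit of the factor that binds class II promoters, stood at 0.15 ± 0.12.

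The markers of microglia and macrophages, taken as a sum, were also higher in ONC. Of 13 microglia and macrophage markers tested 3 were DEGs, beside 1.66% of all genes. All 3 were higher in ONC, Itgam (log2 fold change 0.76), Cd68 (1.497) and C1qa (0.59). Their edgeR FDRs of 0.0903, 0.0912 and 0.0931 were borderline, and C1qa, at 0.5855, lay at the fold limit of a DEG (0.585). The summed RPKM of the list was 27.9 to 32.5 in sham and 43.6 to 49.5 in ONC. Microglia carry MHC class I and much of the antigen-processing machinery, and the part of these cells in the rise of H2-K1 and H2-D1 was not tested. In whole tissue, a change in the number of cells of a type and a change in RNA per cell cannot be told apart. Of the T and NK cell markers, Cd3d, Cd3g, Cd8b1, Ncr1 and Klrb1c had 0 exon reads in all samples, and the list summed to 0.329 to 0.393 RPKM in sham and 0.377 to 0.587 in ONC. The marker of that list that could be tested, the kinase gene Lck, had 4, 13 and 6 reads in sham and 16, 17 and 32 in ONC, without overlap (log2 fold change 1.27 ± 0.61, edgeR FDR 0.297, unadjusted p 0.0491).

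Of 8 RGC markers tested 8 fell, with a median log2 fold change of -0.79, and 5 were DEGs, Nefh (-1.29), Sncg (-0.95), Rbpms (-0.82), Pou4f2 (-1.39) and Pou4f1 (-0.75). Of 4 red blood cell genes 2 fell, Hba-a1 (log2 fold change -0.99) and Hba-a2 (-1.24), and the list summed to 116 to 258 RPKM in sham and 76.9 to 111 in ONC. The other markers tested were those of dendritic cells, neutrophils, endothelium, Muller glia and astrocytes, and pigment epithelium (3, 3, 6, 6 and 5 genes, in that order). Of these, 0 passed the FDR by edgeR. An unadjusted p under 0.05 was found for 3, all in Muller glia and astrocytes, with 2 higher and 1 lower in ONC. Over all genes 16.7% had such a p in either direction. Of 5 photoreceptor markers 1 rose, and the list summed to 15788 to 16288 RPKM in sham and 16327 to 17792 in ONC. That separation was found on the RPKM scale only. As exon reads scaled by TMM to a common library size, the list summed to 60003 to 64415 in sham and 56991 to 64202 in ONC. Those ranges overlap.

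Intron reads, the reads on a gene outside its exons, come largely from unspliced RNA and give a readout that the exon counts do not use. Of 13391 genes tested on them 2.7% passed the FDR. Only 8 members had enough intron reads to be tested, and 0 of them passed by edgeR. At an unadjusted p under 0.05 the count was also 0, beside 17.2% of all genes tested on intron reads. With 8 members, these counts do not set them apart from other genes. H2-K1 was not among them, with 0, 0 and 0 intron reads in sham and 12, 9 and 6 in ONC. H2-D1 had 8, 12 and 5 in sham and 8, 5 and 7 in ONC.

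**Figure D5:**
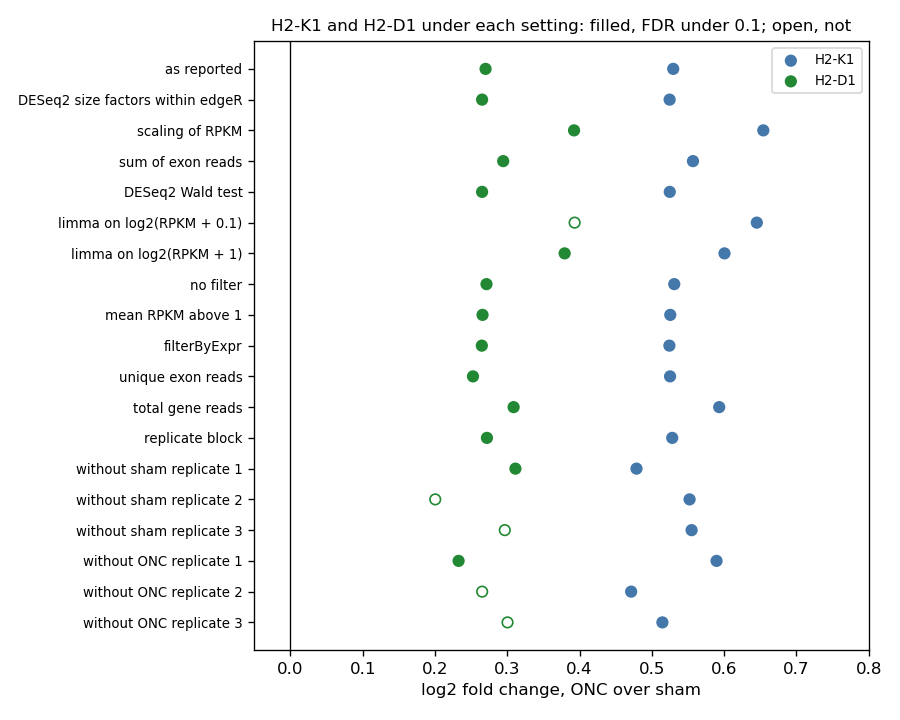
Log2 fold change of ONC over sham for H2-K1 (blue) and H2-D1 (green) as reported and under the 18 alternative settings. Filled points passed an FDR of 0.1 and open points did not. H2-K1 is filled throughout and H2-D1 is open in 5 settings.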

How the data were processed

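Total RNA was extracted from the retinas and then pooled, and cDNA libraries made from the pools were sequenced as paired reads. Mapping was done by the authors in CLC Genomics Workbench, and they deposited, per sample, counts of reads on exons and on whole genes, total and unique, and RPKM, which is exon reads scaled by exon length and by the reads on genes. The build named in the submitters' processing notes is mm9, while positions in the files match GRCm38: 96.2% of the 29908 symbols shared with RefSeq GRCm38.p6 start within 5000 bases on the same chromosome. The sequences printed are from RefSeq.

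Groups follow the sample labels. Total exon read counts were tested with edgeR 4.0.16 in R 4.3.3 (TMM, glmQLFit, glmQLFTest, no covariate) on genes with a mean above 0.3 RPKM in a group, with Benjamini-Hochberg adjustment. The study's own tests used RPKM and a t statistic, and counts were preferred here because the files hold them. The standard error is the log2 fold change over the square root of F. Intron reads are gene reads minus exon reads. Alternatives used DESeq2 1.42.0 and limma 3.58.1. Values come from 3 pools per group, so the tests set the group difference against variation between pools, estimated partly across genes. Labels give no batch.

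All 32 members are named. From the pathway lists, genes that are DEGs and the 3 smallest p-values per list are named, and from the marker lists up to 5 DEGs. Some items that this rule would name are not reported here. Psmb5, Psmb6, Psmb7, Lck, the marker genes and ligands at 0, H2-K2 and H2-T10 were named after their values were seen. The members and lists were chosen with earlier results of these data known.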

Additional observations from a re-analysis of the deposited data

Results flagged for a closer look

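Reads on genes to which the files give an exon length of 0 enter no exon comparison, and all of them count as intron reads. H2-K2, a class I pseudogene beside H2-K1, had 187, 176 and 228 reads in sham and 296, 414 and 384 in ONC. The ratio of ONC to sham was 1.59 after TMM scaling by exon reads. H2-T10, a nonclassical class I gene, had 10, 8 and 6 reads in sham and 14, 16 and 14 in ONC, a ratio of 1.58. In both, every ONC sample was above every sham sample, after the same scaling. The intron test scales by intron reads instead, so its fold changes are not on the scale of these ratios. In that test H2-K2 rose (log2 fold change 0.92 ± 0.17 SE, edgeR FDR 0.0429), and H2-T10 did not pass (0.90 ± 0.63, FDR 0.501). The call of H2-K2 was lost without sham replicate 2 (FDR 0.12), ONC replicate 2 (FDR 0.319) or ONC replicate 3 (FDR 0.186). Its log2 fold change was then 0.84, 0.81 and 0.97, in that order. Over all genes, 0, 0 and 1 passed the intron test in those settings, against 361 as reported. The call held with the replicate block (FDR 0.0504). Intron reads of H2-K1 summed to 27 in ONC and to 0 in sham, which stood below the filter of the intron test.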

How the results depend on the processing

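Of 515 member fold changes under the 18 alternatives, 473 kept their direction and their side of the threshold. Members past the FDR numbered 2 as reported, 5 with the scaling of RPKM, 1 with limma at a pseudocount of 0.1, 4 with no filter, and 1 to 3 leaving out a sample. Member DEGs numbered 0 as reported, 2 with the scaling of RPKM, 1 with DESeq2, 1 and 2 with limma at pseudocounts of 0.1 and 1, 1 with no filter, 2 on total gene reads, 2 with no fold limit, and 0 to 1 leaving out a sample. All DEGs numbered 227, against 350 with the scaling of RPKM, 147 with limma at a pseudocount of 1, 349 on total gene reads, 833 with no fold limit, and 154 to 358 leaving out a sample. Members called on intron reads numbered 0, 1 with no filter (H2-K1), and 0 to 1 leaving out a sample. The cause of these shifts was not tested. Signs turned for 8 members whose main value was at most 0.13 in size. With the scaling of RPKM and limma at 0.1 and 1, Ifit2 was 0.0168, 0.0188 and 0.0142 and Tapbp 0.0619, 0.0541 and 0.0519. Psmb9 was -0.0779 with limma at 0.1. On total gene reads Usp18 was -0.14 and Gbp3 -0.0121. Leaving out a sample gave -0.0682 to 0.13 for Irf9, -0.0317 to 0.10 for Ifit3, -0.36 to 0.64 for Usp18, -0.15 to 0.22 for Gbp3, -0.19 to 0.0395 for Tapbp, -0.25 to 0.61 for Psmb9 and -0.0637 to 0.22 for H2-Ab1. Same-numbered samples did not deviate together over all genes (r = -0.05, -0.03 and 0.003). A pairing that touches only some genes was not tested. With the replicate block 2 members passed the FDR, 0 were DEGs, all DEGs were 222, 0 were called on introns, and Gbp3 was -0.0191 and Psmb9 -0.0506. Without Esp38, an alternative chosen after seeing the data, 0 members were called on introns. Genes under 10 reads per sample are known only within wide limits.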
